A study of Rattus norvegicus with 15 samples.

Results

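The 6 genes below, all known for growth arrest, were described in rat gastrocnemius muscle: the 3 cyclin-dependent kinase inhibitors of the p21 family (Cdkn1a, Cdkn1b and Cdkn1c) and the 3 Gadd45 genes (Gadd45a, Gadd45b and Gadd45g). Every probe set whose only gene symbol is one of these names was taken, which gave 8 probe sets of the 31042 tested and 6 genes of the 14217 that have a probe set of their own. Cdkn1a and Cdkn1b have 2 probe sets each and the other 4 genes have 1. The rule used no measured value, but the study had picked out Cdkn1a and Cdkn1b on these same arrays, so their direction here is not independent evidence.

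RNA of 15 male Wistar rats, bought at 3.5 weeks of age, was measured on GeneChip Rat Genome 230 2.0 arrays. The sample titles number biological replicates, and each array was taken as 1 rat. The paper's methods instead speak of 4 selected individuals, 1 from each group, and this conflict is not settled. CN (4 rats) ate a diet with 15% casein and LP (4 rats) a diet of matched calories with 8% casein for 4 weeks. CN-R (3 rats) and LP-R (4 rats) had the same first 4 weeks and were sampled on day 84. The paper puts both of these groups on 15% casein after the first phase, whereas the sample labels keep each on its earlier diet, and the files do not settle which diet LP-R ate in the second phase. All rats were fasted for 16 h. CN-R replicate 3 was not used here, and CN-R replicate 4 is a control by its title and description but a restricted rat by its treatment field. It was kept in CN-R. No allele, transgene or drug was part of the design.

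The p21 family proteins bind cyclin and cyclin-dependent kinase complexes and hold cells out of the cell cycle. In skeletal muscle Cdkn1a is induced when myoblasts leave the cycle and differentiate, and in adult muscle its RNA is known to climb with denervation and other atrophy stimuli. The Gadd45 proteins are small stress proteins that bind Map3k4, Pcna and p21 itself. Gadd45a is known as a denervation and fasting gene of muscle, Gadd45b as a target of stress and growth factor signals, and Gadd45g as an early response gene.

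The promoters of 5 of the 6 genes were in the RefSeq table used here (build GRCr8), and Cdkn1c was not among them. Shown are the bases before the annotated gene start of Cdkn1a, the gene with the largest change, and of Gadd45g, the Gadd45 gene that was called. Gadd45a, which was not called, is shown because its window and that of Cdkn1a held a p53 half-site. The Cdkn1b and Gadd45b windows lie almost wholly inside the annotated gene and are not shown. Capitals mark matches to searched motifs.
Cdkn1a, chr20:7150682-7150819, plus strand: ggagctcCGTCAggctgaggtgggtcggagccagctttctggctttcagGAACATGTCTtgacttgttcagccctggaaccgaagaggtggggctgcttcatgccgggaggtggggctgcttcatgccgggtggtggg
Gadd45g, chr17:13530352-13530601, minus strand: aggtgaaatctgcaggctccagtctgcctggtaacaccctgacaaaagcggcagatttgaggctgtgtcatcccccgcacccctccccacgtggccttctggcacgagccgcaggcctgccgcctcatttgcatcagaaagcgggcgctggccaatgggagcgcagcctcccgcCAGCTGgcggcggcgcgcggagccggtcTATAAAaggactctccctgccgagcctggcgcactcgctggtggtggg
Gadd45a, chr4:97486800-97487049, minus strand: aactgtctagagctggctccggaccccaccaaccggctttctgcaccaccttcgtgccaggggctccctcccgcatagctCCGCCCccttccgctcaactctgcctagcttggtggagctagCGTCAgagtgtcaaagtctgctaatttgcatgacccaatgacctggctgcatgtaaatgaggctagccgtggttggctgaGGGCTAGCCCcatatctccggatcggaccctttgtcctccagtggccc

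Positions are counted back from the start that the promoter table gives, within 300 bases of which 250 lie before it. The Cdkn1a window held a CRE half-site (TGACG, read on the reverse strand) at -243 to -239 and a p53 half-site at -201 to -192. The Gadd45a window held a GC box (GGGCGG on the reverse strand) at -170 to -165, a CRE half-site at -128 to -124, a p53 half-site at -48 to -39 and, after the start and so outside the bases shown, an E-box at 6 to 11. The Gadd45g window held an E-box (CAGCTG) at -76 to -71 and a TATA box (TATAAA) at -48 to -43. Of the windows not shown, that of Cdkn1b held the CRE half-site at -92 to -88 and that of Gadd45b at -3 to 2. Both also held the GC box. Among all 33469 promoters of the table and on both strands, 21.2% held the CRE half-site, 7.98% the p53 half-site, 33.1% the GC box, 15.1% the E-box and 14.2% the TATA box. The FoxO motifs TGTTTAC (in 3.78% of promoters) and TGTTTGC (4.88%) were in none of the 5 windows. The p53 half-site was added to the search after the sequences had been seen. On GRCr8 the genes lie at chr20:7150820-7161373 (Cdkn1a), chr4:169491273-169496500 (Cdkn1b), chr1:208084801-208087680 (Cdkn1c), chr4:97484497-97486799 (Gadd45a), chr7:9428689-9430991 (Gadd45b) and chr17:13528606-13530351 (Gadd45g).

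The deposited values are log2 signals that FARMS, a factor model, makes from the probes of a probe set. Where the probes share no variation, FARMS returns nearly the same value for every array. Probe sets with an SD above 0.01 over the arrays of a comparison, 3974 in LP against CN and 3100 in LP-R against CN-R, are called varying below. The early arrays (CN, LP) and the late arrays (CN-R, LP-R) were summarized apart, so a level in one set is not compared with a level in the other. A change is the difference of the group means of log2 signal, restricted less control, given with its standard error (SE). A probe set was called when rank products, run over all probe sets, put the expected share of false calls, the pfp, at 0.05 or less. limma with Benjamini-Hochberg adjusted p and an exact two-sided permutation test of the single probe set, not adjusted, stand beside it. The smallest p that the exact test can give is 0.0286 in both comparisons.

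After 4 weeks on 8% casein, 5 of the 8 member probe sets were called lower in LP than in CN, and none was called higher. They belong to 4 of the 6 genes, Cdkn1a with both probe sets, Cdkn1b with 1 of 2, Cdkn1c and Gadd45g. Among all probe sets, 1.62% were called lower and 1.67% higher. Among varying probe sets, which all 8 members were, these shares were 12.7% and 13.1%. With rank products run on the varying probe sets alone, 1 member probe set was called lower. Without CN replicate 1 the count was 2, and it was 3 when CN replicate 3, LP replicate 3 or CN replicate 4 was left out. The mean was lower in LP for each of the 8, with a median change of -0.19, while the median change of all 2425 genes with a varying probe set was 0.03 and 36.9% of those genes had a negative change. The changes of the 3 Gadd45 probe sets were smaller than their SE, and each turned positive when some single array was left out. limma called no probe set at all (0%), with 2342 of 31042 at an unadjusted p under 0.05, 2 of them member probe sets.

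In LP-R, only 1 member probe set was called lower against CN-R, a probe set of Cdkn1a, and none was called higher. The shares called were 0.171% lower and 0.345% higher of all probe sets, and 1.71% and 3.45% of the varying ones. The means of all 7 varying member probe sets were again lower in the restricted rats, but 67.2% of the 1745 genes with a varying probe set had a negative change too, with a median of -0.02. The median over the 7 varying member probe sets was -0.17. With deviations from each probe set's mean permuted in place of levels, the split over all probe sets turned from 107 higher and 53 lower to 64 higher and 140 lower, and 3 member probe sets were called lower. limma again called no probe set (0%), with 1566 at an unadjusted p under 0.05, 1 of them a member.

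**Figure D1:**
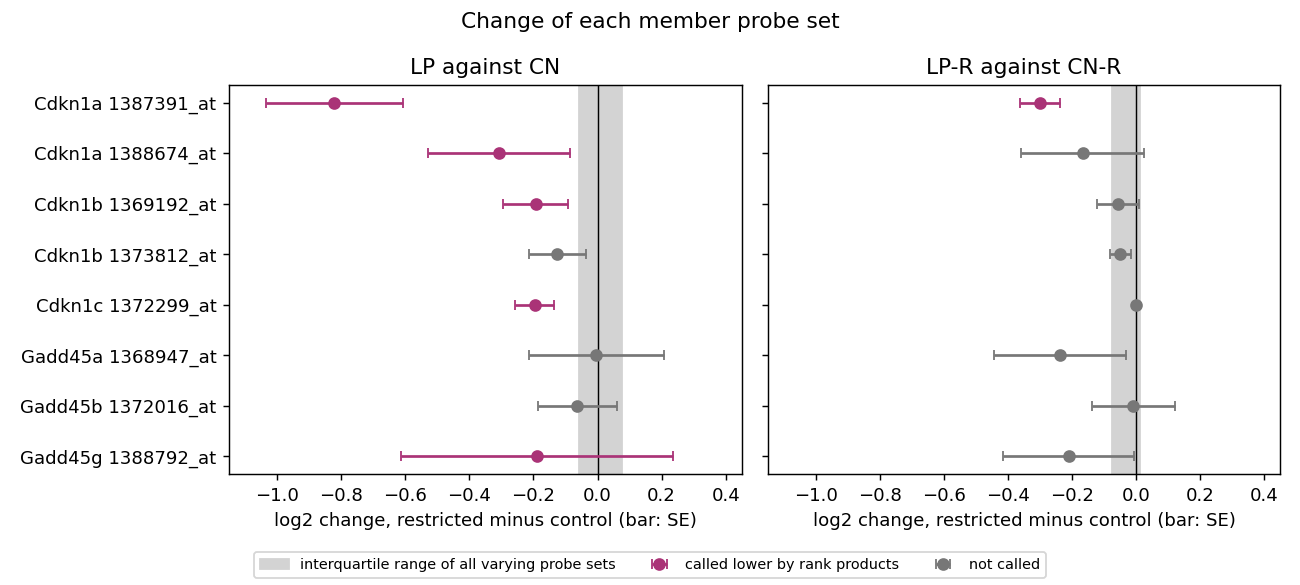
Change of each member probe set (log2, restricted minus control, bar: SE) in LP against CN and in LP-R against CN-R. Purple points were called lower by rank products, and the grey band is the interquartile range of the changes of all varying probe sets. The largest changes in both panels are those of Cdkn1a 1387391_at, at -0.82 and -0.30.

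Cdkn1a encodes p21, which inhibits cyclin-dependent kinases and binds Pcna. Its probe set 1387391_at read 8.13, 7.74, 7.89 and 7.91 in CN replicates 1 to 4. In LP it read 7.14, 7.48, 6.54 and 7.23. All 4 LP rats were below all 4 CN rats, LP replicate 3 was the lowest, and 0.26 on the log2 scale separated the groups. The mean was 7.92 ± 0.16 (SD, n = 4) in CN and 7.10 ± 0.40 (SD, n = 4) in LP. The change of -0.82 (SE 0.21) is a level 0.566 times that of CN. The exact permutation test gave p = 0.0286, limma p = 0.0070 and an adjusted p of 0.58, and the pfp was 0, no permuted value being as low. Of the varying probe sets, 2.49% had all LP arrays below all CN arrays and 5.41% had them all above. The call held in 8 of 8 runs that left out 1 array, with changes from -0.95 to -0.64.

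The same probe set read 6.79, 6.92 and 6.81 in CN-R replicates 1, 2 and 4. In LP-R it read 6.45, 6.60, 6.46 and 6.64. The groups did not overlap, with 0.15 between them, and the array with the doubtful label, CN-R replicate 4, was above each LP-R array. That array was also above CN-R replicate 1, so with it placed in LP-R the groups overlap, and the call was then lost. The CN-R mean was 6.84 ± 0.07 (SD, n = 3). That of LP-R was 6.54 ± 0.10 (SD, n = 4), a change of -0.30 (SE 0.06) or a level 0.812 times that of CN-R. The pfp was 0.0252, the exact permutation p 0.0286, limma's p 0.0042 and its adjusted p 0.97. Among varying probe sets, 3.32% had all LP-R arrays below all CN-R arrays and 0.516% had them all above. Leaving out any one of the 3 CN-R arrays lost the call, with changes of -0.33, -0.26 and -0.31, while leaving out an LP-R array kept it. Over all probe sets the lower calls shifted in the same way, from 53 with all arrays. The runs without a CN-R array called 2, 6 and 9 lower, and those without an LP-R array 74 to 135.

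Of 2073 probe sets that varied in both array sets, 3 (0.145%) had every restricted rat below every control in both comparisons: Cdkn1a 1387391_at, Pde4d 1392968_at and Wbp1l 1397681_at. For Cdkn1a this holds only with CN-R replicate 4 counted as a control. Pde4d encodes a cAMP phosphodiesterase, and its changes were -0.28 and -0.08. Those of Wbp1l were -0.16 and -0.13. The other 2 genes were named after the values were seen. Rank products called 16 of the 2073 (0.772%) lower in both. The change of Cdkn1a 1387391_at in LP-R differed from that in LP by 0.52 (SE 0.22), and an exact permutation test within the array sets gave p = 0.2 for this difference, 1 of 8 such tests, not adjusted.

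The other Cdkn1a probe set, 1388674_at, read 9.04, 9.01, 8.63 and 9.51 in CN and 8.92, 8.92, 8.37 and 8.75 in LP. The groups overlapped, and 1 LP rat lay below all CN rats. The change of -0.31 (SE 0.22) was called by rank products (pfp 0.0054), with an exact permutation p of 0.286. The call was lost without CN replicate 4, the highest array, where the change was -0.15. In the late arrays it read 7.87, 7.96 and 7.42 in CN-R and 7.60, 7.80, 7.34 and 7.58 in LP-R, a change of -0.17 (SE 0.19) that was not called (pfp 0.136, exact permutation p 0.4).

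The 2 Cdkn1a probe sets therefore gave changes of unlike size in LP. Their difference within an array, 1387391_at minus 1388674_at, was -1.60 to -0.73 in CN and -1.83 to -1.44 in LP. The means of these differences lay 0.51 apart (SE 0.22), with an exact permutation p of 0.0857, and in the late arrays 0.13 apart (SE 0.17, exact permutation p 0.457). After group means were taken off, the probe sets correlated across arrays with Pearson's r of 0.51 (8 early arrays) and 0.49 (7 late arrays), as a description of these arrays. LP replicate 3 was lowest of LP on both probe sets.

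**Figure D2:**
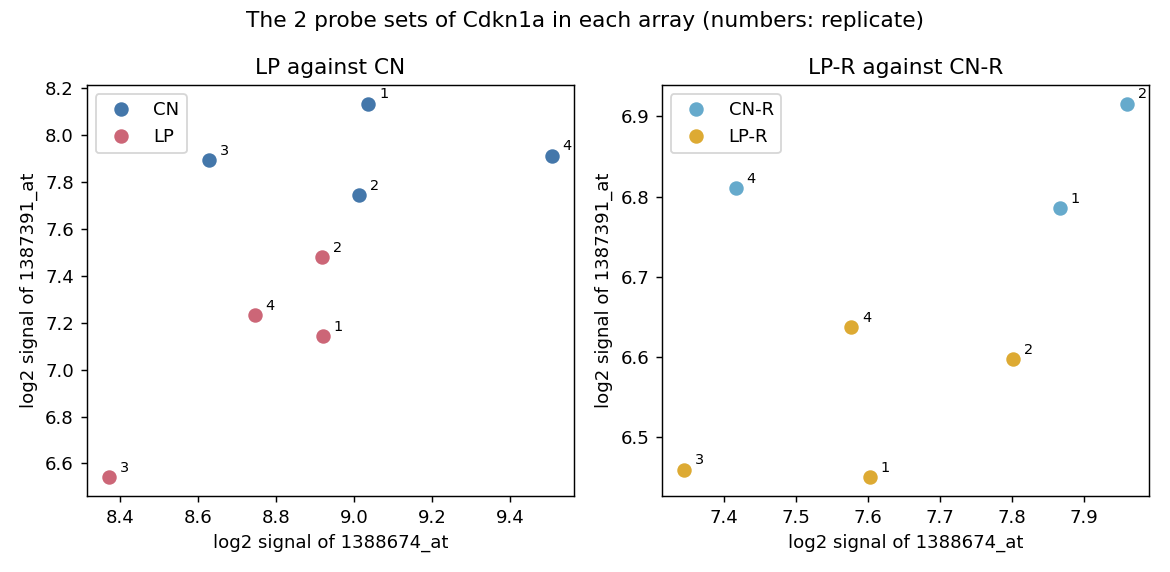
Log2 signal of Cdkn1a probe set 1388674_at (x axis) against 1387391_at (y axis), 1 point for each array with its replicate number. With CN-R replicate 4 as a control, the restricted rats lie below all controls on the y axis in both panels. On the x axis the groups overlap.

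Cdkn1b encodes p27, which keeps quiescent cells out of the cycle and is removed by the ubiquitin ligase subunit Skp2. Its probe set 1369192_at read 8.00, 7.87, 8.13 and 7.75 in CN and 7.63, 7.91, 7.68 and 7.76 in LP. The groups overlapped, with 2 LP rats below all CN rats. The change of -0.19 (SE 0.10) was called lower at a pfp of 0.0375 with an exact permutation p of 0.143, and the call was lost in 5 of 8 runs that left out 1 array. The second probe set, 1373812_at, ran from 10.27 to 10.44 in CN and from 10.02 to 10.39 in LP. Its change of -0.13 (SE 0.09) was not called (pfp 0.0883).

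In the late arrays neither Cdkn1b probe set was called. The change was -0.06 (SE 0.07) for 1369192_at, with 3 LP-R arrays below and 1 above all CN-R arrays, and -0.05 (SE 0.03) for 1373812_at. The Cdkn1b probe sets differed from each other in change by 0.07 (SE 0.07) in LP and by 0.01 (SE 0.06) in LP-R, less than or about as much as the error in each case.

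Cdkn1c encodes p57, an imprinted inhibitor that accompanies myogenic differentiation. Its probe set 1372299_at read 10.16, 10.10, 10.02 and 10.16 in CN and 10.06, 9.87, 9.88 and 9.83 in LP. Of the 4 LP rats, 3 lay below all CN rats, and LP replicate 1 fell within the CN range. The change of -0.20 (SE 0.06) was called at a pfp of 0.0096, with an exact permutation p of 0.0571 and a limma adjusted p of 0.62. The call was lost without CN replicate 1 or CN replicate 4 (changes of -0.18 each). In the late arrays FARMS gave 7.80 for all 7 rats with an SD near 0, so these arrays hold no measured difference for Cdkn1c in either direction.

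**Figure D3:**
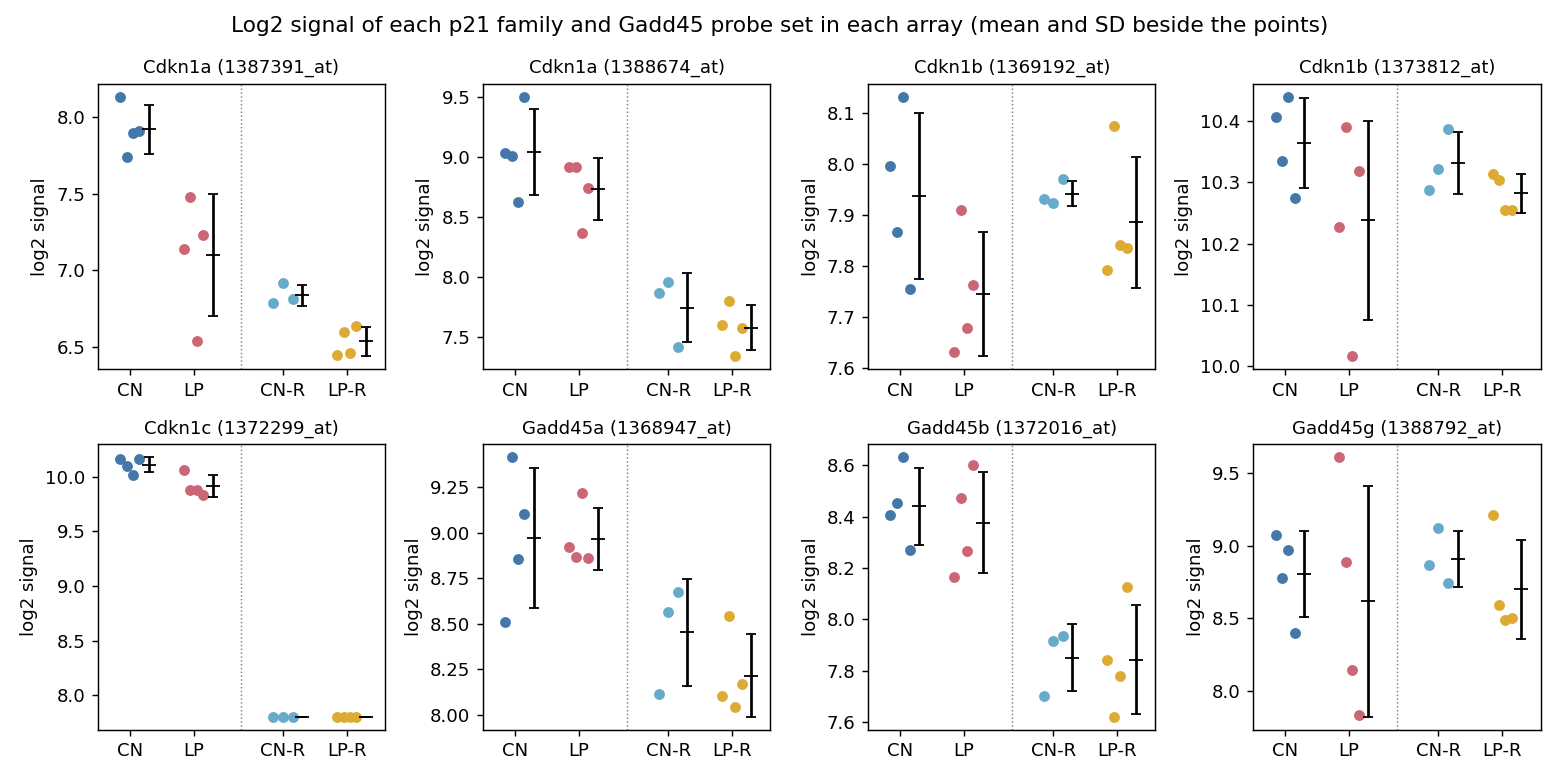
Log2 signal of each member probe set in each array of CN, LP, CN-R and LP-R, with the mean and SD beside the points and a dotted line between the separately summarized early and late arrays. With CN-R replicate 4 as a control, Cdkn1a 1387391_at is the probe set whose restricted and control points do not overlap on either side of the line. Cdkn1c is flat at 7.80 in the late arrays.

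Gadd45g encodes a Gadd45 protein that binds Map3k4 and blocks Cdk1 with cyclin B. Its probe set 1388792_at read 9.07, 8.77, 8.97 and 8.40 in CN and 9.61, 8.88, 8.14 and 7.83 in LP. The LP arrays spread on both sides of CN, with 2 below all CN rats and 1 above them. The change of -0.19 (SE 0.42) was called lower at a pfp of 0.0145 although it was smaller than its SE, and the exact permutation p was 0.686. The call was lost in 4 of 8 runs that left out 1 array, and without LP replicate 4 the change was 0.07. In the late arrays it read 8.86, 9.12 and 8.74 in CN-R and 9.21, 8.59, 8.49 and 8.50 in LP-R. In LP-R, 3 rats lay below all CN-R rats and replicate 1 above them, and the change of -0.21 (SE 0.20) was not called (pfp 0.0873). Without LP-R replicate 1 it was -0.38 and was called lower.

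Gadd45a is, like Cdkn1a, known to respond to denervation. Its probe set 1368947_at read 8.51, 9.42, 8.85 and 9.10 in CN and 8.92, 8.86, 9.22 and 8.86 in LP. All LP values lay inside the CN range. The change was -0.0037 (SE 0.21), and leaving out 1 array moved it from -0.16 to 0.14. In the late arrays it read 8.12, 8.57 and 8.67 in CN-R and 8.10, 8.54, 8.04 and 8.17 in LP-R. The groups overlapped, and the change of -0.24 (SE 0.21) was not called (pfp 0.0702, exact permutation p 0.229). It was called with LP-R replicate 2 left out (change -0.35), and when deviations were permuted (pfp 0.0376).

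Gadd45b ran from 8.27 to 8.63 in CN, from 8.16 to 8.60 in LP, from 7.70 to 7.93 in CN-R and from 7.62 to 8.13 in LP-R (probe set 1372016_at). The changes were -0.06 (SE 0.12) in LP and -0.0085 (SE 0.13) in LP-R, neither called, and both changed sign when single arrays were left out. With the exception of Cdkn1c, flat in the late arrays, the differences between the LP and LP-R changes had exact permutation p of 0.2 to 0.963 over the members.

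The member probe sets did not move as one group among rats of the same diet. After group means were taken off, Cdkn1a 1387391_at correlated with Cdkn1b 1373812_at at r = 0.89 over the 8 early arrays and at -0.11 over the 7 late arrays. With Gadd45a the values were -0.69 and 0.53. Other pairs kept their sign, as with Cdkn1b 1369192_at (0.45 and 0.38) and with Gadd45b (0.33 and 0.39). These are descriptions of a few arrays that share a summarization. Among 1387 probe sets with an SD over 0.05 in both sets, the ones most like a member, by the smaller of the early and late r, were Rnf144b (0.66 and 0.76), an E3 ubiquitin ligase gene, for Cdkn1a 1387391_at, and Dyrk2 (0.75 and 0.78), a kinase gene, for 1388674_at. Rif1 (0.95 and 0.95) was nearest to Cdkn1b 1369192_at and Snrpd3 (0.92 and 0.92) to Gadd45a. Cd24 (0.76 and 0.82) was nearest to Gadd45b and Atp8b1 (0.87 and 0.84) to Gadd45g, for which the second was Myc (0.88 and 0.82).

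Of all 14217 genes, 2425 varied in the early arrays. The lists differed in this, as 14 of 22 transcription regulators varied there but 1 of 14 proliferation genes. Of 14 cyclins and cyclin-dependent kinases, 2 varied in the early arrays and 1 was called, Ccnd2 (cyclin D2), higher in LP by 0.18 (SE 0.15). None of the 5 other inhibitors (Cdkn2a to Cdkn2d and Cdkn3) varied in either array set. Of 12 pocket protein and E2F genes, Rbl2 (p130) was called lower by 0.18 (SE 0.08) and E2f6 higher by 0.15 (SE 0.05) in LP. Of 14 proliferation genes, 1 varied in LP, Mcm7, a subunit of the replicative helicase, and it was called lower by 0.13 (SE 0.07). In LP-R no gene of these 4 lists was called. For comparison, 2.56% of all genes were called higher and 2.48% lower in LP, and 0.422% and 0.274% in LP-R.

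Of 16 p53 target genes and regulators measured, 2 were called higher and 1 lower in LP and none in LP-R. Mdm4, a p53 inhibitor, was higher by 0.17 (SE 0.07) and Plk2, a polo-like kinase, by 0.21 (SE 0.17). Ddit4, an mTORC1 inhibitor that stress hormones also induce, was lower by 0.72 (SE 0.70). The median over the 6 varying genes of the list was -0.06 in LP, and over the 4 that varied in LP-R it was -0.0092. No gene was called among 10 Gadd45 partners and stress kinases, where the median of the 4 that varied in LP was 0.06, nor among 9 genes that remove p27 and p21. Of these 9 genes, 1 varied in LP and none in LP-R, and Skp2 had no probe set of its own. Of 8 genes of the denervation response, 1 was called lower in LP (Runx1, by 0.22, SE 0.19) and none in LP-R.

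Among 22 transcription regulators known to act on the members, 6 were called lower and 3 higher in LP, and 11 of the 14 that varied had a negative change, with a median of -0.12. Cebpb, a stress and hormone responsive factor, was lower by 0.21 (SE 0.08). The others with the smallest limma p were Foxo1, lower by 0.27 (SE 0.19), and Mef2c, lower by 0.27 (SE 0.19). Foxo1 encodes a factor that activates atrophy genes and inhibitors of the cycle, and Mef2c a muscle differentiation factor. The rest called lower were Cebpd by 0.49 (SE 0.36), Runx1 by 0.22 (SE 0.19) and Klf15 by 0.13 (SE 0.21). The 3 called higher were Egr1 by 0.27 (SE 0.37), Atf3 by 0.24 (SE 0.27) and Smad3 by 0.17 (SE 0.17). Over all varying genes, 36.9% had a negative change in LP. In LP-R, 2 were called lower, Myod1 by 0.41 (SE 0.18) and Atf3 by 0.43 (SE 0.47), and 9 of the 11 that varied had a negative change, with a median of -0.09, against 67.2% of all varying genes. Atf3, a stress response factor, was thus called higher in LP and lower in LP-R, and whether these changes differ was not tested. Myod1 encodes the myogenic factor that induces Cdkn1a in differentiating myoblasts. Its LP change was -0.18 (SE 0.25), not called. None of these genes passed limma.

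**Figure D4:**
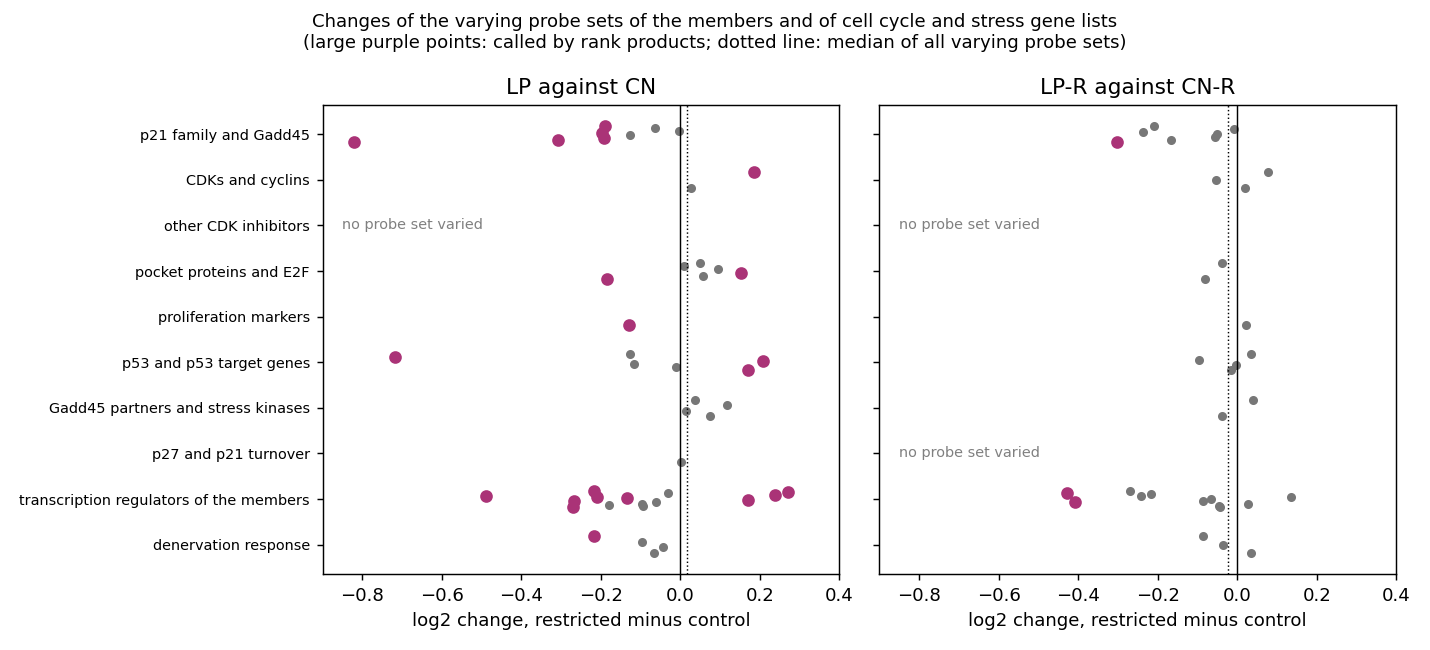
Log2 change of each varying probe set of the members (top row) and of the varying genes of 9 lists of related genes, in LP against CN and LP-R against CN-R. Large purple points were called by rank products, the dotted line is the median of all varying probe sets, and the members, the transcription regulators and the denervation response genes have most of their points left of it in both panels.

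The tissue carried its muscle markers. In the early arrays their summed log2 level was 16.73 to 16.75 in CN and 16.70 to 16.74 in LP. In the late arrays it was 16.72 to 16.76 in CN-R and 16.70 to 16.75 in LP-R. Only 4 of the 10 varied in each array set, so the sums include values that FARMS left nearly constant. Their narrow range is not a measure of stable fiber content. Of these 10 markers none was called in LP, and in LP-R Myh1 (a fast myosin) was called higher with 2 of 5 probe sets (largest change 0.15) and Myh7 (slow myosin) lower with 1 of 2 (-0.39). Their probe sets of highest signal were not called. In whole muscle, fewer cells of a type and less RNA per cell cannot be told apart. Of 4 satellite cell markers measured, 2 varied in each array set and none was called. Pax7 and Myf5 had no probe set of their own. The summed level was 10.03 to 10.31 in CN, 9.95 to 10.35 in LP, 9.61 to 9.98 in CN-R and 9.50 to 9.83 in LP-R. Sdc4 had the highest signal of these markers, with a mean of 9.70 in CN against 7.02 for Cdh15. This sum and those of the lists below also include values that FARMS left nearly constant. Of 6 endothelial markers, 2 were called higher in LP (Kdr by 0.40, SE 0.08, and Tie1 by 0.14, SE 0.09), and the sum was 10.82 to 10.91 in CN and 10.94 to 11.06 in LP. Of 6 fibroblast markers, 2 were called lower in LP and none in LP-R. They were Col1a1, by 0.19 on 1 of 2 probe sets, not that of highest signal, and Col1a2, by 0.17. Of the 5 that varied in LP, 3 had positive changes and 2 negative, with a median of 0.04. In LP-R the 5 that varied had negative changes. The sums were 14.47 to 14.85 in CN, 14.55 to 14.66 in LP, 13.50 to 13.72 in CN-R and 13.38 to 13.64 in LP-R. Of 6 adipocyte markers, Adipoq was called higher in LP by 0.38 (SE 0.38) and Cfd lower in LP-R by 0.34 (SE 0.09), with sums of 11.81 to 12.22 in CN, 11.89 to 12.32 in LP, 11.35 to 11.38 in CN-R and 11.31 to 11.34 in LP-R. None of 6 macrophage markers varied, and none of the Schwann or red blood cell markers was called. In LP-R the 3 Schwann cell markers that varied had negative changes (median -0.11), and that of Hbb (beta-globin) was -0.36 (SE 0.27). The signals have no 0, so no marker can be listed as absent. The part of these cell types in the changes of the members was not tested.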

How the data were processed

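RNA of 15 gastrocnemius muscles, each array taken as 1 rat, was analysed in 4 groups taken from the sample labels (CN 4, LP 4, CN-R 3, LP-R 4). The authors deposited log2 signals for each probe set, made with FARMS in R. The scale was checked on the values, and no further normalization was applied. FARMS ran on the early and the late arrays apart and leaves most probe sets nearly constant, so comparisons stayed within a set. Control probe sets (57) were left out. Probe sets were named from the platform annotation: 20826 carry 1 symbol, 436 several and 9780 none. The number of arrays limits the precision.

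Rank products were chosen after the methods of the paper and written in Python 3.11.15 (numpy 2.4.6, pandas 2.3.3, scipy 1.17.1). They took every pair of arrays, permuted the log2 signals within an array 100 times (random seed 1). The threshold was a pfp of 0.05. They take all probe sets to vary alike. limma 3.58.1 ran in R 4.3.3 and called at an adjusted p up to 0.05. Exact permutation tests ran over every split of the arrays. The scripts were tested on simulated data.

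The members, the lists and the rule for naming genes were chosen with earlier results of these data known. The rule named all members, up to 3 called genes for each list and comparison by limma p, and the genes of highest r for likeness. Beyond the rule, all called transcription regulators were named for LP. Of several probe sets of a gene, the one with the highest mean signal gives the level and the change. The gene counted as called when any of its probe sets was, and values from another probe set are marked. For lists with no call the rule's gene was nearly constant in most cases and is not printed. Motifs were searched in RefSeq promoters (GRCr8). Alternatives were other normalizations, filters, limma settings, a replicate block, LP-R as the group of CN-R replicate 4, and each array left out. Permuting deviations from the probe set mean was added after the values were seen, alone and with each array left out.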

Additional observations from a re-analysis of the deposited data

Results flagged for a closer look

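Gadd45a stood at 9.22 in LP replicate 3, while the other LP arrays read 8.86 to 8.92, and this gap was flagged by Dixon's criterion at the 95% level. Gadd45g stood at 9.21 in LP-R replicate 1, while the other LP-R arrays read 8.49 to 8.59, and was flagged in the same way. Chance flags about 1 in 20 groups, and groups of 3 arrays were not tested.

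The change of Cdkn1c in LP-R minus its change in LP was 0.196 (SE 0.06), flagged by an exact permutation test of the difference within the array sets (p = 0.0457, 1 of 8 such tests, not adjusted). The late arrays give Cdkn1c as a constant, so the value is the LP change set against 0. With 1 array left out at a time, p ran from 0.018 to 0.0751.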

How the results depend on the processing

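With all member probe sets, 5 were called lower in LP and 1 in LP-R, and 0 were called higher, which stayed 0 under each alternative run. Of the called probe sets in LP, Cdkn1a 1387391_at kept its call when any 1 array was left out. The count in LP was 1 with rank products on varying probe sets alone, 0 with limma, 0 with limma's trend and robust prior, 2 to 6 with 1 array left out, and 2 to 5 with 1 array left out and deviations permuted. In LP-R it was 0 on probe sets above the median level, 0 on varying probe sets alone, 0 with limma, 0 with its trend and robust prior, 0 with CN-R replicate 4 placed in LP-R, 3 with deviations permuted, and 0 to 2 with 1 array left out.

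Replicate numbers are shared between groups. Arrays of the same number correlated, after group means were taken off, at 0.55, -0.03, 0.17 and 0.40 in the early set and at 0.04, 0.19 and 0.22 in the late set. Not every array correlated best with its own number, so the numbers were not taken to pair the rats. With the replicate block, rank products called 4 member probe sets lower in LP and 1 in LP-R, and limma 0 in each.

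The Gadd45b change in LP-R turned positive with quantile normalization (0.0059), median centring (0.018), the replicate block in rank products and in limma (0.012 in each) and CN-R replicate 4 placed in LP-R (0.052). With 1 array left out it ran from -0.10 to 0.065. In LP such runs gave -0.14 to 0.0080 for Gadd45b, -0.16 to 0.14 for Gadd45a and -0.52 to 0.073 for Gadd45g. The difference between the LP-R and LP changes ran from -0.024 to 0.28 for Cdkn1a 1388674_at, from -0.040 to 0.13 for Gadd45b and from -0.28 to 0.31 for Gadd45g, where median centring gave 0.018. The causes were not tested.

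Over all probe sets, LP against CN gave 519 higher and 503 lower, 128 and 230 above the median level, 10 and 23 on varying probe sets alone, 692 and 501 with the block, and 104 to 631 and 133 to 628 with 1 array left out. LP-R against CN-R gave 107 and 53, 54 and 29 above the median level, 5 and 2 on varying ones alone, 44 and 135 with the block, 332 and 14 with CN-R replicate 4 placed in LP-R, 64 and 140 with deviations permuted, and 28 to 139 and 2 to 135 with 1 array left out.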
